A study of Mus musculus with 41 samples.

Results

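The genes followed here are 44 genes of the cell cycle and of DNA replication, chosen by their annotated symbol from a list of proliferation markers, cyclins and their kinase, replication licensing and fork genes, mitotic kinases, spindle and centromere genes, and transcription and chromatin regulators. Of these, 42 had a probe that the platform annotation assigns to 1 gene, among 19057 genes with such a probe, and Mki67 and Ccnb1 were not analysed here. The arrays hold RNA of brain, liver and subcutaneous adipose tissue (SAT) of C57/BL6NHsd mice on postnatal day 4. The dams received metformin, a biguanide that lowers blood glucose, or vehicle by mouth through most of gestation. By the sample labels, the dams of study I ate regular diet (RD). Its arrays cover brains of 3 control and 3 metformin males, and livers of 3 control and 3 metformin animals in males and again in females. Those of study II ate high-fat diet (HFD) before mating and in gestation and returned to RD around birth, and the arrays cover male offspring only, with 6 livers per treatment, 6 SAT samples of controls and 5 of metformin offspring. No group carries an engineered allele. Each array holds 1 animal, and by the animal codes, each RD brain has a liver of its own animal, as has each SAT sample. The letters in the animal codes differ between treatments, with 2 sets of letters in each control and each metformin group and none shared. The labels do not say what they mark. If it is litters, litter and treatment cannot be told apart in any metformin comparison. Brain was thus measured only in RD offspring and SAT only in HFD offspring, so diet and study cannot be told apart in any comparison between them.

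A dividing cell first licenses its replication origins by loading the Mcm2 to Mcm7 helicase with Cdc6 and Cdt1, then copies its DNA with the help of Pcna, ribonucleotide reductase and thymidine-making enzymes, and finally separates the copies on a spindle watched over by the Aurora and Polo kinases and the spindle checkpoint. Most of these genes are transcribed only in cycling cells, the replication genes under E2F factors before DNA synthesis and the mitotic genes under the DREAM and B-Myb–Foxm1 complexes later in the cycle. In the newborn mouse the liver still grows fast and is losing its fetal blood-forming cells, while many neurons of the brain have already left the cycle.

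The promoters of 5 members are shown because members of the replication and of the mitotic group shifted together between tissues. Each stretch also holds E2F or CHR letters, defined below, which E2F and DREAM-type complexes are known to read. RefSeq (GRCm38.p6) gave a window of 250 bases before to 50 bases after the start for 35 of the 44 genes. Each printed stretch covers the 160 bases before the start, 5′ to 3′ on the gene's strand, and capitals mark every match to 3 motifs on either strand. These are E2F (TTTGGCGC, TTTCCCGC, TTTCGCGC or TTTGCCGC), the cell-cycle homology region CHR (TTTGAA or TTCGAA, of which the latter reads the same on both strands) and CCAAT. The stretches lie at chr11:99024190-99024349 (minus strand) for Top2a, chr10:69352913-69353072 (minus) for Cdk1, chr8:75109349-75109508 (plus) for Mcm5, chr1:128359706-128359865 (minus) for Mcm6 and chr19:37376222-37376381 (plus) for Kif11.
Top2a: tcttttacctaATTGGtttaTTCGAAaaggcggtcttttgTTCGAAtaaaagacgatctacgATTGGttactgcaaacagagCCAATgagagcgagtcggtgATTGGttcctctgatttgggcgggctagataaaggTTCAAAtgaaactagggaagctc
Cdk1: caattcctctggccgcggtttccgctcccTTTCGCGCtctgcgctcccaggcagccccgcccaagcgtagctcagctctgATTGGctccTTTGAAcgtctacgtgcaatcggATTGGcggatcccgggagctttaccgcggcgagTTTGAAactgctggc
Mcm5: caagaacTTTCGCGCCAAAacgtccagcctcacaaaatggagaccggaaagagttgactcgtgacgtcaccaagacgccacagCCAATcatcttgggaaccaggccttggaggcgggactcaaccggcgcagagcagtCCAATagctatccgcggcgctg
Mcm6: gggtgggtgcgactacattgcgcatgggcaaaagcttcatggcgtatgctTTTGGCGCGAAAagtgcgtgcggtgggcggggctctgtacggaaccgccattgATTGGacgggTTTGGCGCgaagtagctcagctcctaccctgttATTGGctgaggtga
Kif11: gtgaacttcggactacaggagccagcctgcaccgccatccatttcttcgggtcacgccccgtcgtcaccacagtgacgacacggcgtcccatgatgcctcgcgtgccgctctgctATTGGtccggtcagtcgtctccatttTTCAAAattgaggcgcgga
In Mcm5 and Mcm6 a pair of E2F matches overlaps on opposite strands. Over the whole windows, 7 of the 35 members (20%) held an E2F match against 2.32% of 27025 genes. A CHR match was found in 16 members (45.7%) against 19.4% of genes, and CCAAT in 25 members (71.4%) against 37.9%. The windows of Ccne1, Tyms, Tk1, Mad2l1, Chek1, Nusap1, Birc5 and E2f1 held none of these letters. These matches describe the letters of the windows and are not evidence of binding in these tissues.

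The 41 arrays had detection p-values under 0.05 for 43.6 to 46.1% of probes in brain, 31 to 41.6% in liver and 29.9 to 43.4% in SAT. The labelled tissues carried their markers, with mean levels of 10.06 to 10.20 for neuron genes in brain, 10.96 to 11.77 for hepatocyte genes in liver and 9.77 to 10.75 for adipocyte genes in SAT (log2 normalized intensity, the scale of every level below). SAT also held skeletal muscle RNA, and its muscle marker mean ran from 6.72 to 11.93 on control arrays and from 11.02 to 12.12 on metformin arrays. The RD metformin livers 3E and 4E carried neuron markers at 6.50 and 5.77, against 4.83 to 5.58 on the other livers. Of the 42 members, 33 were detected on every brain array, 32 on every liver array and 26 on every SAT array. Ccnb2 (a mitotic cyclin), Bub1 (a checkpoint kinase), Kif20a (a kinesin of the midzone) and Cenpe (a kinetochore motor) were detected on no array, Ccna2 (the S and G2 phase cyclin) was detected on 1, and these 5 were tested in no comparison. The heat map of all members shows these values array by array.

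**Figure D1:**
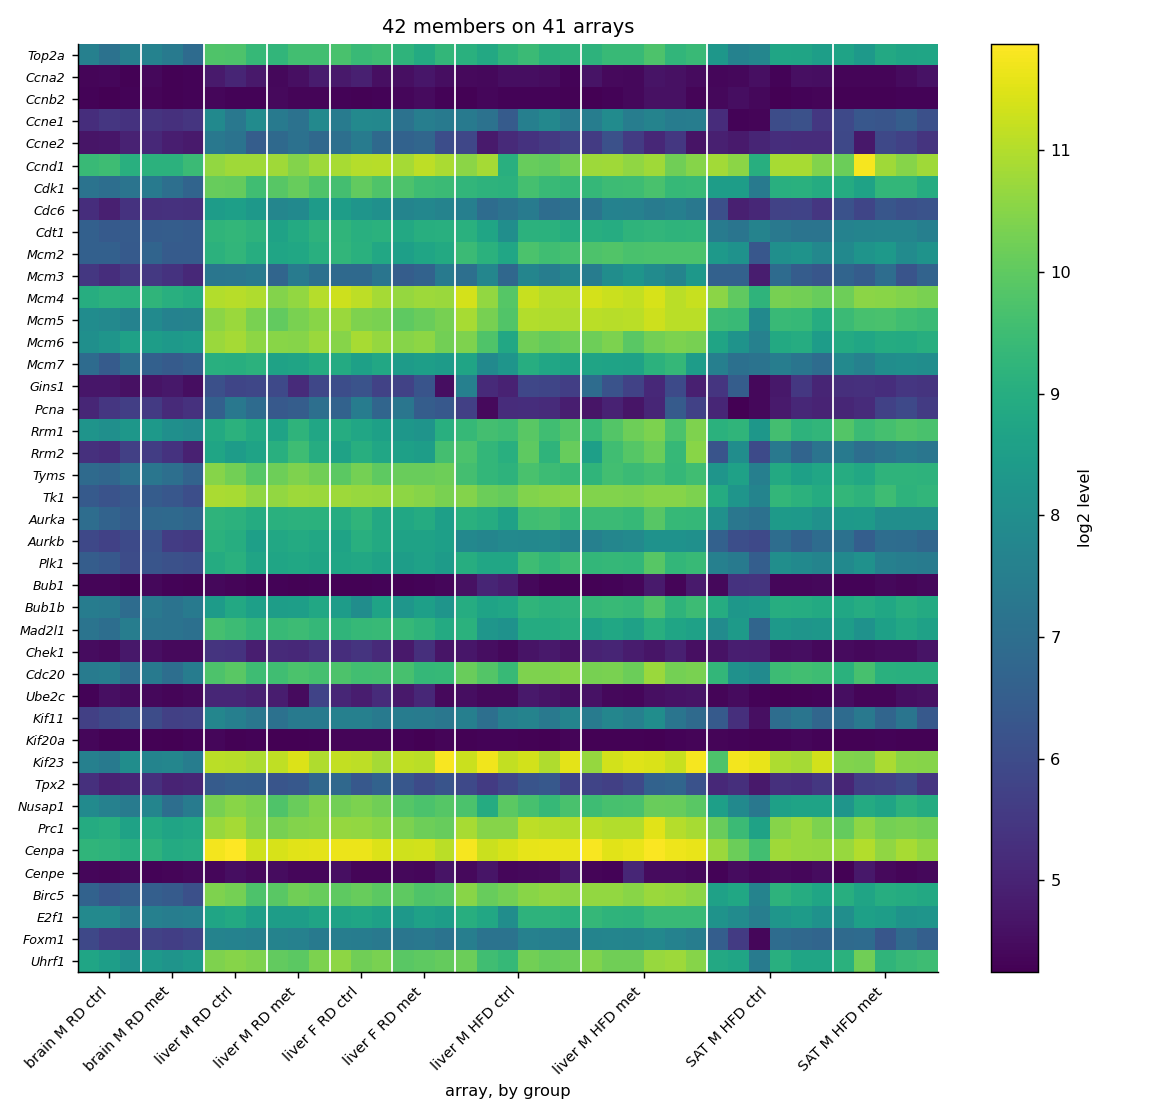
Log2 level of the 42 measured members (rows, ordered by role) on each of the 41 arrays (columns, ordered by group), with brighter cells for higher levels. The brain columns are the lowest for most members, the liver columns the highest, and the rows of Ccnb2, Bub1, Kif20a and Cenpe stay near background throughout.

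The first comparison asks how cell-cycle transcripts differ between the tissues of the newborn. In control males of RD dams, the mean level of the 42 members was 6.40 to 6.48 on the 3 brain arrays and 8.30 to 8.50 on the 3 liver arrays. All 37 members tested passed the threshold (limma, adjusted p under 0.05) with lower levels in brain, against 37.3% of the 11870 genes tested. On each of them every brain array lay below every liver array, which held for 38.5% of genes. Their differences ran from −4.47 to −0.57 with a median of −2.30 on the log2 scale, while the median over all genes was 0.05. Of the 37, 33 were detected on every array of both groups, and Ccne2, Gins1, Chek1 and Ube2c entered the test through liver. In whole tissue, fewer cycling cells and less transcript per cell cannot be told apart.

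Among the DNA precursor and fork genes, Tk1, the thymidine kinase of dividing cells, measured 6.42, 6.19 and 6.35 in the 3 control brains and 10.90, 10.87 and 10.62 in the livers of the same animals. This was the largest difference of any member, −4.47 ± 0.13 (SE, 22.2-fold lower, adjusted p = 2.63e-12). Tyms, which makes thymidylate, and Rrm2, the regulated subunit of ribonucleotide reductase, were lower in brain by 9.75-fold and 9.36-fold. Of its further probes, 1 was also lower (−2.71) and 1 did not pass (0.05, adjusted p = 0.778). Rrm1, the constant subunit of the same enzyme, was 1.74-fold lower. Pcna, the sliding clamp of the replication fork, read 5.08, 5.46 and 5.66 in brain and 6.60, 7.30 and 6.92 in liver. Its difference was −1.54 ± 0.22 (2.91-fold lower, adjusted p = 2.23e-05).

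All 9 licensing and helicase genes were lower in brain, with a median of −2.43. Mcm2, a subunit of the replicative helicase, measured 6.60, 6.60 and 6.42 in brain and 9.16, 9.28 and 9.01 in liver, a difference of −2.61 ± 0.13 (6.11-fold lower, adjusted p = 5.81e-10). Cdc6 and Cdt1, which load the helicase, were 9.57-fold and 6.75-fold lower. Gins1, a part of the active helicase, was detected on none of the control brain arrays and was at least 2.23-fold lower there. Such a bound sets the mean of the bright group against, for each dim array, the lowest signal among detected probes or the probe's own signal, whichever was higher.

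The cyclin and kinase group had a median of −2.26 over 4 members tested. Ccnd1, the cyclin that answers growth signals, read 9.41, 9.52 and 9.05 in brain and 10.63, 10.80 and 10.77 in liver (−1.41 ± 0.15, 2.65-fold lower, adjusted p = 1.39e-06). Cdk1, the kinase that drives mitosis, was 6.93-fold lower. Top2a, the topoisomerase that untangles replicated chromosomes, read 7.56, 7.12 and 7.53 in brain and 9.78, 9.73 and 9.36 in liver (4.65-fold lower, adjusted p = 1.86e-07).

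The mitotic genes showed the same order of size. Birc5, the survivin subunit of the chromosomal passenger complex, measured 6.65, 6.32 and 6.51 in brain and 10.39, 10.29 and 9.74 in liver (12.5-fold lower, adjusted p = 4.56e-10). Kif23, a kinesin of the cytokinetic midzone, measured 7.56, 7.40 and 8.0 in brain and 11.08, 11.04 and 10.94 in liver (10.3-fold lower, adjusted p = 5.62e-10). The medians were −2.31 for 8 mitotic kinase, checkpoint and ubiquitination genes and −2.50 for 7 spindle and centromere genes. Ube2c, the ubiquitin-conjugating enzyme of the anaphase-promoting complex, was at least 1.18-fold lower (adjusted p = 0.0495). The transcription and chromatin regulators E2f1, Foxm1 and Uhrf1 were 2.01-fold, 3.88-fold and 3.87-fold lower.

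Other cell-cycle genes showed the same direction. Of 79 further genes tested, 71 were lower and 4 higher in brain, with a median of −1.66. In this list of 99 measured genes, 67 were detected on every control brain array and 26 on none, against 76 on every control RD male liver. Its median is thus partly a distance to background. The lowest p-values were those of Cdkn3 (a phosphatase of Cdk1 and Cdk2, −3.94), Ccnd3 (a cyclin prominent in blood cells, −2.81), Cdk2 (−2.35) and Cdca3 (−2.80). Genes that restrain the cycle did not share it, as 5 were higher and 5 lower of 14 tested (median −0.15), against 40.2% of all genes higher, with Gadd45a (a DNA damage response gene) at −3.09 and Cdkn1c (p57, a kinase inhibitor) at −1.91. Markers of blood-forming cells moved with the members. All 16 erythroid markers tested were lower in brain (median −4.57), and so were all 12 granulocyte markers (median −6.71), while all 7 neural progenitor markers tested were higher (median 3.27). Of the 18 measured erythroid markers 11, and of the 13 granulocyte markers 11, were detected on no control brain array. Likewise 5 of the 9 measured neural progenitor markers were detected on no control male RD liver. These medians are thus partly distances to background. The part of these cell types in the differences of the members was not tested.

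**Figure D2:**
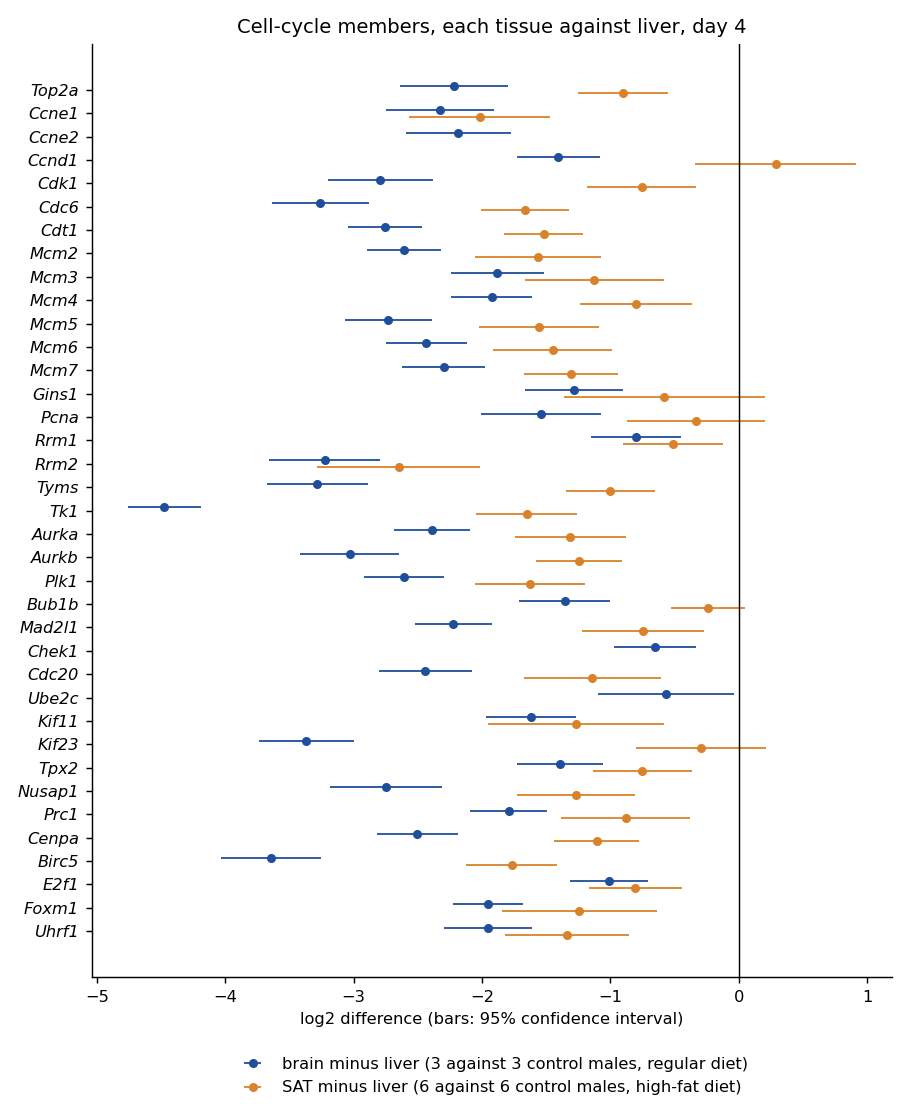
Log2 difference from liver of each tested member in control males, for brain (blue, RD, 3 against 3 arrays) and SAT (orange, HFD, 6 against 6 arrays), with 95% confidence intervals. All 37 brain points lie left of 0, from −4.47 to −0.57, and the SAT points run from −2.65 to 0.29.

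SAT was compared with liver in the 6 control males of HFD dams. The mean of the members was 6.57 to 7.52 in SAT and 7.82 to 8.35 in liver. Of 34 members tested, 29 were lower in SAT and none higher, against 26.3% of 10001 genes lower. On 20 members every SAT array lay below every liver array, against 17% of genes. The median difference was −1.19 (range −2.65 to 0.29), against 0.14 over all genes. Among the 26 members detected on every array of both groups, 23 were lower. The lowest array of both tissues came from the same animal, 1T-1, and without its SAT array the median was −0.93. With arrays centred on their medians in place of quantile normalization, 16 members were lower and none higher.

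Rrm2 had the widest gap between SAT and liver. It ranged from 5.95 to 8.0 (median 6.94) in SAT and from 9.05 to 10.09 (median 9.49) in liver, without overlap (−2.65, 6.28-fold lower, adjusted p = 7.62e-08). Ccne1, the cyclin that starts DNA synthesis, was detected on 4 of 6 control SAT arrays. It measured 4.32 and 4.36 on the other two, 1R-4 and 1T-1, and 5.23 to 6.15 on these 4, so the SAT side of its difference of −2.02 lies partly at background. Birc5 ran from 7.65 to 9.17 (median 8.77) against 10.10 to 10.60 (median 10.51), again without overlap (3.41-fold lower, adjusted p = 3.69e-09). Mcm2 ran from 6.33 to 8.34 (median 8.10) against 8.75 to 9.73 (median 9.49), a 2.96-fold difference, and Tk1, Cdc6 and Cdt1 were 3.14-fold, 3.17-fold and 2.87-fold lower. Top2a ran from 7.64 to 8.75 (median 8.40) against 8.86 to 9.46 (median 9.19), which was 1.87-fold lower (adjusted p = 7.10e-05). With median centring Top2a did not pass (−0.87, adjusted p = 0.127).

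The members that did not pass were Ccnd1, Pcna, Bub1b, Kif23 and Gins1. Ccnd1 ranged from 9.04 to 10.88 (median 10.68) in SAT and from 9.07 to 10.84 (median 10.20) in liver, so the groups overlapped throughout. Its difference was 0.29 with a 95% interval of −0.34 to 0.91 (adjusted p = 0.431), but it passed as higher in SAT with array weights (0.48, adjusted p = 0.0354) and without the arrays with the lowest shares of detected probes (0.75, adjusted p = 0.0249). Pcna ranged from 4.27 to 5.10 (median 4.90) in SAT, where 3 of 6 control arrays detected it, and from 4.45 to 5.68 (median 5.20) in liver (−0.33, interval −0.87 to 0.21). Bub1b, a checkpoint kinase, differed by −0.24, but a further Bub1b probe passed at −0.58 (adjusted p = 0.0254). Kif23 differed by −0.30, and a further probe of it also passed (−0.49, adjusted p = 0.0277).

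By role, the medians were −0.76 for cyclins and Cdk1 (2 of 3 lower), −1.45 for licensing and helicase genes (8 of 9), −1.0 for precursor and fork genes (4 of 5), −1.20 for mitotic kinases and checkpoint genes (5 of 6), −1.11 for spindle and centromere genes (6 of 7) and −1.24 for the 3 regulators. Of 72 other cell-cycle genes, 50 were lower and 6 higher in SAT. In this list of 99 measured genes, 44 were detected on every control SAT array, against 64 on every HFD control liver. Ccnd2, a D-type cyclin, was higher in SAT by 2.65, while E2f2 and Dlgap5 (a spindle protein) differed by −2.46 and −2.08. Of 14 genes that restrain the cycle, 7 were higher and 3 lower, against 37.7% of all genes higher and 26.3% lower, among them Ccng1 (a p53 target, 2.50), Cdkn2b (p15, 2.35) and Cdkn1c (1.62). Of 16 erythroid markers 15 were lower in SAT (median −4.17), and their part in the members' differences was not tested. Of the 18 erythroid markers measured, 6 were detected on no control SAT array.

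Brain and SAT were set against each other through the livers of their own diet, as brain minus liver in RD controls less SAT minus liver in HFD controls. By this measure all 37 members were on the low side in brain, and 26 passed, against 30.4% of 12237 genes (median −1.12, against −0.07 over all genes). With median centring 8 of the 37 passed, 35 were on the low side, and the median over all genes moved to 0.33. The largest were Kif23 (−3.07), Tk1 (−2.82), Tyms (−2.28), Birc5 (−1.88) and Aurkb (the kinase of the passenger complex, −1.78). Ccnd1 (−1.69, adjusted p = 0.00225), Top2a (−1.32), Pcna (−1.21, adjusted p = 0.0138) and Mcm2 (−1.05, adjusted p = 0.0143) passed as well. The call of Pcna was lost without brain 1B or RD liver 3B (adjusted p = 0.0512 and 0.0545). Not every HFD control SAT or liver array detected Pcna, so the HFD part of its contrast lies close to background. Its own levels in control brains did not lie below those in control SAT. With median centring Top2a, Ccnd1, Mcm2 and Birc5 lost their calls (adjusted p = 0.377, 0.311, 0.569 and 0.132), and Mcm2 also in the values normalized by the authors (−0.39, adjusted p = 0.109). Rrm2, far below liver in both tissues, did not pass (−0.57), nor did Ccne1 (−0.31) or E2f1 (−0.20). Markers of several cell types were also lower in brain by this measure, all 8 adipocyte markers (median −5.04), 8 of 10 skeletal muscle markers (−5.07), 6 of 7 fibroblast and preadipocyte markers (−6.23) and 9 of 12 granulocyte markers (−1.43), while 7 of 16 erythroid markers were lower and 2 higher (−0.35). All 8 adipocyte, 5 of 10 skeletal muscle and 11 of 13 granulocyte markers were detected on no control brain array. The medians of these lists thus lie partly at background. The part of these cell types in the members' differences was not tested. The order of the tissues by the members' mean was liver, then SAT, then brain, and it was set across 2 diets and 2 studies that cannot be told apart from tissue here.

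**Figure D3:**
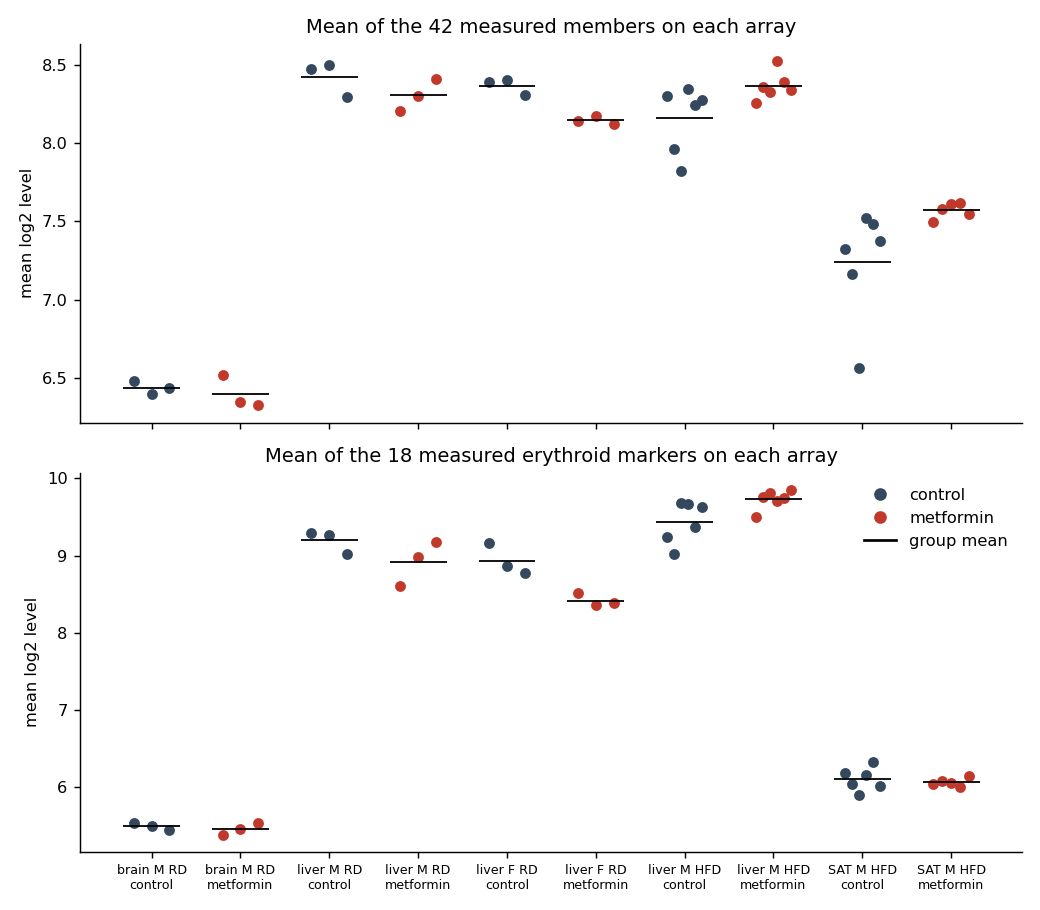
Mean log2 level of the 42 members (top) and of 18 erythroid markers (bottom) on each of the 41 arrays, by group, with a bar at each group mean. Members lie between 6.33 and 6.52 in brain, 6.57 and 7.62 in SAT and 7.82 and 8.52 in liver. In both panels the group means are lower with metformin in RD livers and higher in HFD livers, while control and metformin arrays overlap in male livers.

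The next question is whether metformin given to the dams altered proliferation genes in the livers of HFD offspring. No member passed after adjustment in the 6 against 6 HFD livers, where 0.601% of 9990 genes did (18 higher and 42 lower). At an unadjusted p under 0.05 (limma), 11 of 37 members were higher and none lower, against 7.88% of genes higher. The differences were small and nearly all of 1 sign, with 34 of 37 positive against 49.3% of genes and a median of 0.25 (range −0.03 to 0.54) against −0.00 over all genes. On E2f1 and Mcm5 every metformin array lay above every control array, which held for 0.831% of genes.

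Uhrf1, which reads hemimethylated DNA at the fork and recruits the maintenance methyltransferase, had the smallest p. It measured 10.16, 9.54, 9.37, 10.25, 10.12 and 10.16 in control livers and 10.42, 10.23, 10.23, 10.71, 10.77 and 10.48 in metformin livers. Only the control array at 10.25 reached the lowest metformin arrays, and the difference of 0.54 ± 0.14 did not pass (adjusted p = 0.0697). E2f1, the activator of replication genes, ran from 7.99 to 9.17 (median 9.06) in controls and from 9.19 to 9.43 (median 9.36) with metformin (0.45, adjusted p = 0.126). Mcm5, a helicase subunit, ran from 9.80 to 10.98 (median 10.90) against 11.05 to 11.29 (median 11.07), with a difference of 0.46 (adjusted p = 0.147).

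Mcm2 ranged from 8.75 to 9.73 (median 9.49) in controls and from 9.69 to 9.81 (median 9.72) with metformin (0.36, adjusted p = 0.160). Top2a ranged from 8.86 to 9.46 (median 9.19) against 9.19 to 9.75 (median 9.39), with wide overlap (0.23, adjusted p = 0.304). Ccnd1 ranged from 9.07 to 10.84 (median 10.20) against 10.21 to 10.80 (median 10.69), with a difference of 0.47 (adjusted p = 0.210). Bub1b and Foxm1, the factor that drives mitotic genes, differed by 0.42 and 0.27 (adjusted p = 0.115 and 0.147). Pcna was detected on 4 of 6 control and 2 of 6 metformin livers and differed by 0.15 (adjusted p = 0.824). The 3 members with a negative difference, Gins1, Kif23 and Ube2c, lay between −0.03 and −0.01. Among 25 further probes of 16 members, 5 had a sign opposite to the probe that stands for the gene.

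The control liver of animal 1T-1 was the lowest of its group in the members' mean, at 7.82 against 8.25 to 8.52 on the metformin arrays. Without it the members' median was 0.17, 31 of 37 were positive and 7 had an unadjusted p under 0.05, while without control 1T-2 17 had. Of 78 other cell-cycle genes, 60 were positive and 21 were higher at an unadjusted p under 0.05. Of these Pold1, the catalytic subunit of DNA polymerase delta, passed the adjustment (0.70, adjusted p = 0.0391). Cdca8, Dnmt1 and the DNA ligase Lig1 followed at 0.50, 0.41 and 0.52 and did not pass. Of 13 genes that restrain the cycle 6 were positive and none passed.

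Markers of blood-forming cells were higher in the same livers. The erythroid mean ran from 9.02 to 9.68 (median 9.50) in controls and from 9.50 to 9.85 (median 9.76) with metformin, and all 16 erythroid markers tested had a positive difference (median 0.33, 7 with an unadjusted p under 0.05). Of 12 granulocyte markers, Mpo (0.62, adjusted p = 0.0193) and Prtn3 (0.54, adjusted p = 0.0419), both granule proteins of precursors, passed. With the erythroid mean as a covariate the members' median was 0.16 and 29 of 37 were positive. When arrays were centred on their medians in place of quantile normalization, the median over all genes moved to −0.22 and that of the members to −0.07, so that 28 of 37 members lay above the median of all genes but the sign of their own median turned.

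**Figure D4:**
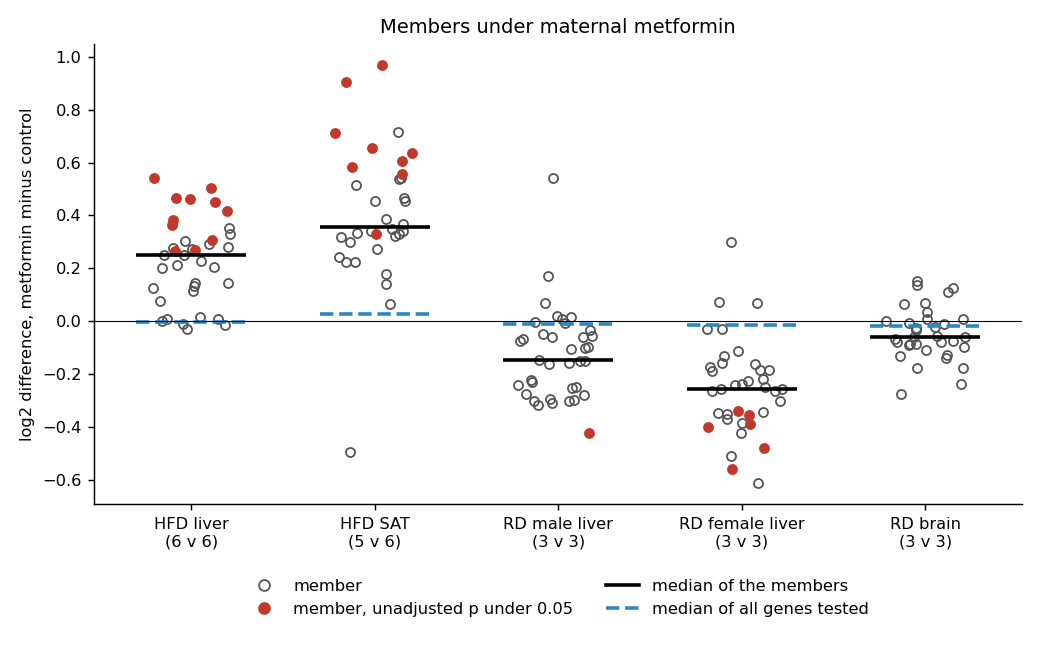
Log2 difference between metformin and control of each tested member in HFD liver, HFD SAT, RD male liver, RD female liver and RD brain. Red dots have an unadjusted p under 0.05, and no dot passed the adjustment. The black bar is the members' median (0.25, 0.36, −0.15, −0.26 and −0.06) and the dashed blue line the median of all genes.

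In SAT of HFD offspring, 6 control arrays were compared with 5 metformin arrays. No member passed the adjustment, and neither did any of the 9311 genes (0%). This count depended on the model. With array weights 6 members were higher (Mcm7, Pcna, Cdt1, Cdc6, Uhrf1 and Tyms, adjusted p from 0.0107 to 0.0392), against 3.59% of genes, and in a single model of all 41 arrays 6 were higher (Uhrf1, Mcm7, Ccne1, Tyms, Cdc6 and Tk1, adjusted p from 0.00797 to 0.0309), against 3.82% of genes. At an unadjusted p under 0.05, 9 of 34 members were higher and none lower, against 9.04% of genes higher. Of the 34, 33 were positive, against 53.8% of genes, with a median of 0.36 against 0.03 over all genes. Detection on every SAT array held for 26 of the 34. The others, among them Ccne1, Cdc6 and Pcna, entered the test through a single group. For Ccne1 and Pcna this was the metformin group, so their control side lies partly at background. With median centring the median over all genes moved to 0.55 and that of the members to 0.88, and 31 of 34 lay above the former. On Mcm7 and Uhrf1 every metformin array lay above every control, as for 1.69% of genes.

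Mcm7, a helicase subunit, read 7.55, 7.05, 7.15, 7.47, 7.22 and 6.94 in control SAT and 7.83, 7.60, 7.98, 8.04 and 7.98 with metformin. The groups did not overlap, and the difference was 0.65 (adjusted p = 0.144). Uhrf1 ran from 7.42 to 9.07 (median 8.74) in controls and measured 9.11, 10.22, 9.25, 9.40 and 9.50 with metformin, of which array 3R-1 stood above the rest (0.90, adjusted p = 0.193). That array also carried keratinocyte markers at 7.94, against 5.33 to 5.80 on the other SAT arrays, and their part was not tested.

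Pcna ran from 4.27 to 5.10 (median 4.90) in controls and measured 5.07, 5.18, 5.72, 5.92 and 5.56 with metformin, which overlapped on 1 array (0.71, adjusted p = 0.180). Ccne1 ran from 4.32 to 6.15 (median 5.36) against 5.94, 6.33, 6.25, 6.50 and 6.12, with a difference of 0.97 (adjusted p = 0.208), and 2 of the 6 controls did not detect it. Cdc6, Top2a, Ccnd1 and Mcm2 differed by 0.60, 0.39, 0.37 and 0.30 without passing. Kif23 alone was negative (−0.49, adjusted p = 0.409), and its further probes read 0.36 and 0.03. Among 70 other cell-cycle genes 61 were positive, 13 with an unadjusted p under 0.05 and none past the adjustment, led by Plk4 (the kinase of centriole duplication, 0.98) and Cenpk (a kinetochore protein, 0.91). In this list of 99 measured genes, 70 were detected on every metformin SAT array and 44 on every control SAT array. Part of the 70 thus entered the test through the metformin group, and their control side lies partly at background.

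The SAT control array of animal 1T-1 weighed on these values. It was the lowest SAT array in the members' mean at 6.57, and the other 5 controls lay between 7.17 and 7.52 against 7.50 to 7.62 with metformin. Without it the members' median was 0.22, with 8 members at an unadjusted p under 0.05. Without the SAT arrays 1R-4 and 1T-1, which had the lowest shares of detected probes, the median was 0.14 and 28 of 35 were positive. Skeletal muscle markers were also higher with metformin, 9 of 9 positive with a median of 2.02, and with their mean as a covariate the members' median was 0.29 with 4 at an unadjusted p under 0.05. The metformin difference was not shown to be larger in SAT than in liver. Of 34 members 25 had the larger value in SAT (median of the contrast 0.14), none passed (0% of genes did), and 1 had an unadjusted p under 0.05, which was Tyms (0.62, adjusted p = 0.230). Without the SAT array 1T-1, 18 of 34 had the larger value in SAT and the median of the contrast was 0.02.

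In RD livers the members leaned the other way. With both sexes together, 6 control against 6 metformin livers, no member passed, where 0.0701% of 9990 genes did. At an unadjusted p under 0.05, 7 members were lower and none higher, against 5.85% of genes lower. Leaving out single arrays moved this count between 2 (without metformin male 1E) and 11. Negative differences were seen in 34 of 37 members, against 53.7% of genes, with a median of −0.18 (range −0.49 to 0.31) against −0.01 over all genes. With median centring these medians moved to −0.55 and −0.33, and no member was positive. The 7 were Top2a, Cdc6, Mcm2, Nusap1, Prc1, Cenpa and Uhrf1.

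Cdc6 had the smallest p of them. It read 8.46, 8.54 and 8.33 in control males and 7.75, 7.87 and 8.44 in metformin males, and 8.49, 8.23 and 8.07 in control females and 7.68, 7.79 and 7.66 in metformin females. Metformin male 6F lay among the controls, and the other 5 metformin livers lay below all 6 controls. The difference was −0.49 ± 0.13 (adjusted p = 0.189), and without 6F it was −0.60 and passed (adjusted p = 0.0283). Mcm2 read 9.16, 9.28 and 9.01 against 8.73, 8.78 and 9.04 in males and 9.27, 9.09 and 8.83 against 8.55, 8.73 and 8.88 in females (−0.32, adjusted p = 0.494). Nusap1 and Prc1, both microtubule-bundling proteins of the spindle, differed by −0.38 and −0.32. Pcna and Ccnd1 differed by −0.27 and −0.05. The positive members were Rrm2 (0.31), Kif23 (0.23) and Tyms (0.07), but a further Rrm2 probe read −0.31 and further Kif23 probes −0.79 and −0.37. Further probes were kept for 16 members, 25 in all, and 9 of these probes had a sign opposite to the probe that stands for the gene.

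By sex, the members' median was −0.15 in males and −0.26 in females. The 25 further probes had the opposite sign in 12 cases in males and in 6 cases in females. In females 6 of 37 members had an unadjusted p under 0.05 on the low side, against 3.13% of genes. On 15 of the 37 every metformin female lay below every control female, against 8.25% of genes. In males 1 member had an unadjusted p under 0.05 on the low side, against 3.26% of genes. Every metformin male lay below every control male on 2 of the 37, against 609 of 9990 genes. The reverse held for 1 member, against 444 genes. Whether the sexes differ in this effect was not tested. Erythroid markers again moved with the members. They were negative in 15 of 16 (median −0.45, 12 with an unadjusted p under 0.05), and their mean fell from between 8.78 and 9.16 in control females to between 8.36 and 8.51 in metformin females, without overlap. Of 78 other cell-cycle genes 68 were negative and 21 had an unadjusted p under 0.05, none past the adjustment, with Espl1 (separase, −0.60, adjusted p = 0.0753) the lowest. Without livers 3E and 4E the members' median was −0.21.

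Top2a was the member with a probe that passed in the metformin comparisons of RD liver, but this was its second probe and not the brighter probe that stands for the gene. This probe was singled out after its values were seen. It read 7.37, 7.24 and 7.02 in control RD males and 5.58, 5.93 and 6.78 in metformin RD males, and 7.21, 6.62 and 6.86 against 6.11, 6.20 and 6.38 in RD females. Control and metformin livers did not overlap in either sex. The difference over both sexes was −0.89 ± 0.17 and passed (adjusted p = 0.0379). It did not pass in the values normalized by the authors (−0.28, adjusted p = 0.0879) or with median centring (−1.22, adjusted p = 0.349).

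In HFD males the same probe turned the other way. It read 6.83, 6.56, 7.36, 7.35, 7.24 and 6.80 in control livers and 7.64, 7.63, 7.82, 7.90, 7.59 and 7.46 in metformin livers, again without overlap (0.65 ± 0.17, adjusted p = 0.0690). This difference passed without background correction (adjusted p = 0.0359), in the values normalized by the authors (0.26, adjusted p = 0.0359) and without control 1T-2 (adjusted p = 0.0458), and with median centring it was 0.37 (adjusted p = 0.849). The contrast of the metformin effect in HFD with that in RD males was 1.77 ± 0.30 (adjusted p = 0.0175). Without RD male 1B, 3B or 1E its adjusted p lay above the threshold, at 0.0545, 0.0679 and 0.0918, with values of 1.69, 1.75 and 1.51. The RD difference lost its call on 9 of 12 occasions when a single array was left out, over a range of −1.07 to −0.76. With the letters of the animal codes as a random block, the RD, HFD and contrast values had adjusted p = 0.0418, 0.0762 and 0.0187. On the brighter probe the RD, HFD and contrast values were −0.28, 0.23 and 0.39, of the same signs, and none of them passed.

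The contrast of HFD with RD male livers was tested for every member. No member passed on its brightest probe, where 0.14% of genes did. On the other hand 33 of 37 were positive, against 50.2% of genes, with a median of 0.39, and 11 had an unadjusted p under 0.05, against 7.6% of genes. Without RD metformin male 1E 4 members had, and without HFD control 1T-2 14 had. Uhrf1 had the smallest p (0.84 ± 0.25, adjusted p = 0.147), followed by Cdc6 (0.69), Mcm2 (0.66), Mcm5 (0.70) and Cdt1 (0.62), and none of these passed. Rrm2 (−0.43), Kif23 (−0.18), Tyms (−0.05) and Ube2c (−0.02) had the opposite sign. Among 25 further probes of 16 members, 8 had a sign opposite to the probe that stands for the gene. Of the other cell-cycle genes, 67 of 78 were positive and 25 had an unadjusted p under 0.05, with Dnmt1, the maintenance methyltransferase, at 0.89 (adjusted p = 0.0839). Erythroid markers moved in parallel, 16 of 16 positive with a median of 0.61 and 9 at an unadjusted p under 0.05. Their part was not tested, and diet and study cannot be told apart in this contrast.

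The brain showed least. With 3 against 3 male RD brains, none of 34 members tested passed, where 0.00946% of 10568 genes did. None had an unadjusted p under 0.05 in either direction, against 1.19% of genes on the low side. The differences ran from −0.27 to 0.15 with a median of −0.06. The members' mean was 6.40 to 6.48 in controls and 6.33 to 6.52 with metformin, so the groups overlapped. Top2a read 7.56, 7.12 and 7.53 against 7.62, 7.36 and 6.90. Nusap1 (−0.27) and Mcm7 (−0.24) were the most negative, and Ccne2 (0.15), Mcm6 (0.14) and Cdc6 (0.13) the most positive.

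**Figure D5:**
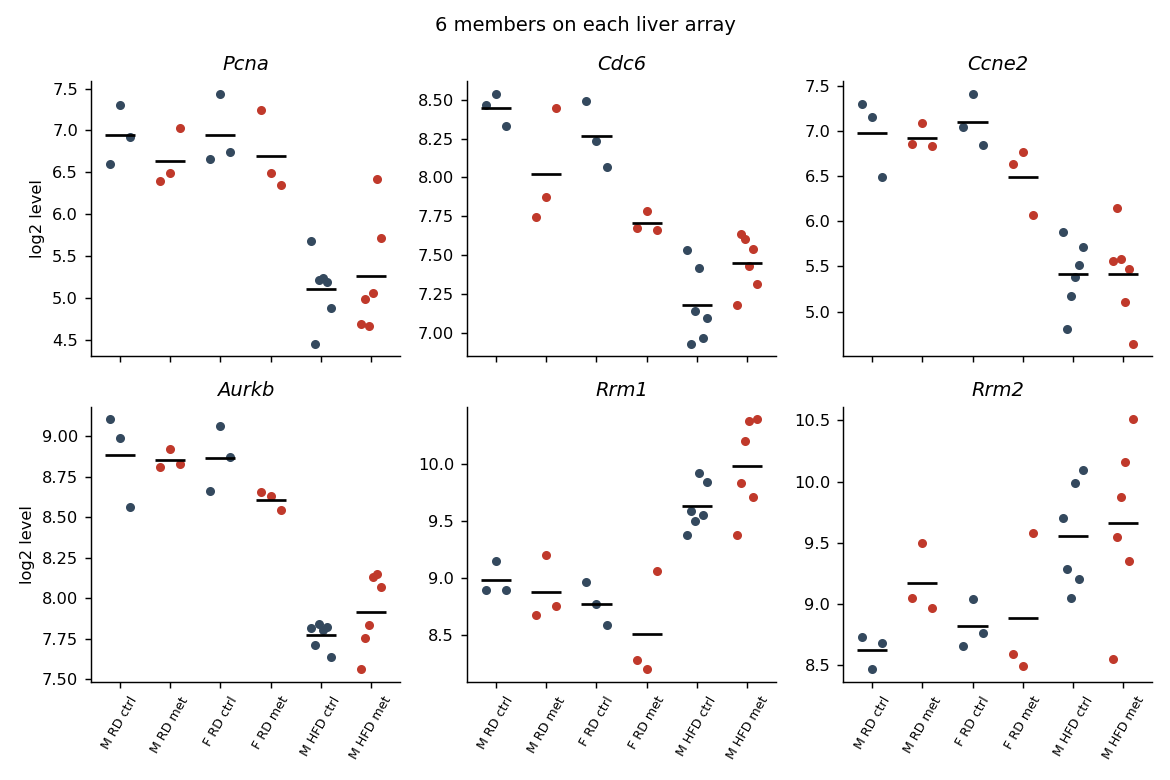
Log2 level of Pcna, Cdc6, Ccne2, Aurkb, Rrm1 and Rrm2 on each of the 24 liver arrays (black control, red metformin, bar at the group mean), by sex and diet. Pcna, Cdc6, Ccne2 and Aurkb lie lower in HFD than in RD male controls, Rrm1 and Rrm2 higher.

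Control livers of HFD males were set against those of RD males to ask how the members differ with the diet of the dam, which cannot be told apart from the study. Of 37 members, 15 were lower in HFD livers, against 16.9% of 9990 genes, and 2 were higher, against 20.5%. On 15 members every HFD liver lay below every RD liver, against 14.6% of genes. The median was −0.39 (range −1.83 to 0.92), against 0.04 over all genes. Among the 32 members detected on every array of both groups, 12 were lower and 2 higher, and their median was −0.17. All 5 DNA precursor and fork genes passed, 3 lower and 2 higher, while each other role with more than 1 member tested held members that passed and members that did not.

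Pcna had the largest fall, from 6.60, 7.30 and 6.92 in RD to between 4.45 and 5.68 (median 5.20) in HFD (−1.83, 3.56-fold lower, adjusted p = 0.000187). It was detected on 4 of the 6 HFD control livers, so the HFD side lies close to background. Ccne2, a cyclin of the start of DNA synthesis, read 7.30, 7.15 and 6.49 in RD and 4.80 to 5.88 (median 5.45) in HFD (2.96-fold lower, adjusted p = 0.000109), also near background. Cdc6 read 8.46, 8.54 and 8.33 in RD and 6.93 to 7.53 (median 7.12) in HFD, 2.40-fold lower and without overlap. Aurkb read 9.11, 8.99 and 8.56 in RD and 7.64 to 7.84 (median 7.81) in HFD, 2.16-fold lower and without overlap (adjusted p = 3.00e-06). Both were detected on every one of these arrays.

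Nusap1 (−0.85), Mcm6 (−0.82), Tyms (−0.76), Mad2l1 (a spindle checkpoint protein, −0.72), Chek1 (the replication checkpoint kinase, −0.60), Cdk1 (−0.57), Tpx2 (a spindle assembly factor, −0.56), Mcm7 (−0.54), Uhrf1 (−0.49), Top2a (−0.45) and Tk1 (−0.44) were the other lower members. Chek1 was detected on no HFD control liver, and its bound was at least 1.06-fold lower. The call of Top2a was lost without RD liver 1B or 3B (adjusted p = 0.0991 and 0.0830). Further probes of Nusap1, Tk1 and Top2a (−0.20, −0.31 and −0.19) did not pass, and those of Tyms disagreed in sign (0.31, 0.31 and −0.64). Among 13 further probes of all members that passed, lower or higher, 7 passed in the same direction and 1 in the opposite direction.

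Both subunits of ribonucleotide reductase were higher in HFD livers. Rrm2 read 8.74, 8.47 and 8.68 in RD and 9.05 to 10.09 (median 9.49) in HFD (1.90-fold higher, adjusted p = 0.0278), and a further probe of it passed as well (0.74, adjusted p = 0.00450). Rrm1 read 8.89, 9.14 and 8.89 in RD and 9.37 to 9.92 (median 9.56) in HFD (1.57-fold higher, adjusted p = 0.0209), but its further probe did not pass (0.24). With median centring the median over all genes moved to −0.57, Rrm1 turned to −0.092 and no member was higher. The call of Rrm2 was lost without any 1 of RD livers 1B, 3B and 5C or HFD livers 1T-2 and 1T-4 (adjusted p from 0.0543 to 0.102), and that of Rrm1 without RD liver 1B or 5C (0.0798 and 0.0747). Mcm2 (0.22), Birc5 (0.29), Bub1b (0.38) and Cdc20 (the activator of the anaphase-promoting complex, 0.38) were positive and Ccnd1 (−0.59, adjusted p = 0.0553) negative without passing. Over 21 other settings Ccnd1 passed in 9, among them the values normalized by the authors (adjusted p = 0.0435), median centring (0.0351) and array weights (0.00351). Bub1b passed in 5, and Mcm2 and Cdc20 in 2 each, with array weights (adjusted p = 0.0246, 0.0296 and 0.00375) and without HFD liver 1T-1 (0.0459, 0.0451 and 0.00914) among them. With median centring Mcm2, Bub1b and Cdc20 turned to −0.53, −0.36 and −0.37.

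Of 78 other cell-cycle genes, 15 were lower and 6 higher in HFD livers. In this list of 99 measured genes, 76 were detected on every RD control male liver and 64 on every HFD control liver. Ncapg (a condensin subunit, −1.84), Kif18a (a mitotic kinesin, −1.59), Aspm (a spindle pole protein, −1.55) and Spc25 (a kinetochore protein, −1.30) had the smallest p. Ncapg was detected on no HFD control liver, so its difference is partly a distance to background. Among 13 genes that restrain the cycle, Gadd45b (1.46) and Btg1 (0.40) were higher and Rbl1 (p107, −0.90) and Ccng2 (−0.81) lower. Erythroid markers were on the high side in HFD livers, 6 of 16 higher with a median of 0.37, opposite to most members.

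The livers of RD females were close to those of RD males. Over both treatments, 6 against 6 arrays, no member differed between the sexes, where 0.04% of genes did. Negative differences were found in 32 of 37, against 47.5% of genes, with a median of −0.13. Foxm1 (−0.26) was the only member with an unadjusted p under 0.05. Erythroid markers were lower in females in 16 of 16 (median −0.44, 12 with an unadjusted p under 0.05).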

How the data were processed

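RNA of 41 arrays (6 brains, 24 livers and 11 SAT samples, 1 animal each) was hybridised to Illumina Mouse WG-6 v2 BeadChips. The authors deposited non-normalized bead intensities with a detection p-value per probe and array, and log2 values that they had variance-stabilized and spline-normalized in lumi. The log2 values deposited by the authors served as an alternative. A further SAT array that the authors discarded for low signal was not analysed here.

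Intensities were background-corrected with the detection p-values, quantile-normalized and log2-transformed with neqc (offset 16) of limma 3.58.1 in R 4.3.3, with the package data.table, version 1.17.8. Each model used the probes that all arrays of some group in it detected at p under 0.05 (15848 to 22685 probes). Of 45281 probes, 34885 had 1 gene symbol, 18 several and 10378 none. The brightest probe stood for a gene. Group means were fitted with lmFit and tested with eBayes, and the Benjamini-Hochberg adjustment ran across every probe of the model (threshold 0.05). The models held 12 RD male arrays (brain and liver), 23 HFD arrays (SAT and liver), 35 male arrays (brain through SAT), 24 livers, 11 SAT or 6 brain arrays. The members, lists and alternatives were chosen with earlier results of these data known. Named genes were Top2a, Pcna, Ccnd1 and Mcm2, the 5 members with the smallest p and up to 4 of opposite sign in each comparison, and others named for their values after these were seen. P-values measure the spread between these animals, some of which may be littermates. Scripts were tested on simulated data.

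The brain and liver of an animal, and the SAT and liver, came from the same animals by their codes. Deviations from the group means of the 2 tissues correlated at −0.04 to 0.33 in 6 animals and at 0.03 to 0.35 in 11.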

Additional observations from a re-analysis of the deposited data

Results flagged for a closer look

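Chance alone sets a single array apart in about 1 in 20 groups, and 20 combinations of a group with the members' mean, Top2a, Pcna, Ccnd1 or Mcm2 were looked at in the groups of 5 or 6 arrays. In 3 of them the SAT control array of animal 1T-1 lay far below the other arrays of its group. Its members' mean was 6.57, where the nearest array was at 7.17. Its Ccnd1 level was 9.04, where the nearest was 10.44, and its Mcm2 level was 6.33, where the nearest was 7.80. These 3 are not separate events, as they come from 1 array and the members' mean includes Ccnd1 and Mcm2. This array had detection p-values under 0.05 for 31.5% of probes, and the part of this in its values was not tested.

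The second Top2a probe responded to metformin differently in male livers of HFD and of RD offspring, by 1.77 on the log2 scale in the test of the difference itself (limma, adjusted p = 0.0175). It was the only further probe of any member to pass in the contrasts of the metformin effect between diets and between SAT and liver. The call was lost without RD male 1B, 3B or 1E.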

How the results depend on the processing

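Of the differences of single members followed over the alternatives, 2829 values kept their direction and their side of the threshold, 22 fell short of it, 35 newly passed it and 1 turned. That 1 was Rrm1 in HFD against RD liver, at −0.092 with median centring. Median centring also gave 16 members lower in SAT than in liver, 8 lower in brain than in SAT through liver and 0 higher in HFD than in RD liver. Array weights gave 1 member higher in SAT than in liver (Ccnd1), 6 higher with metformin in SAT and 6 higher in HFD than in RD liver. A single model of all 41 arrays also gave 6 higher with metformin in SAT. Without background correction, with an offset of 50, or with probes detected on every array, 1 member (Uhrf1) was higher with metformin in HFD liver, and over all alternatives its adjusted p ran from 0.0435 to 0.936. Without a filter 1 member, and with the erythroid covariate 0, were higher in HFD than in RD liver. Counting any probe of a gene gave 1 member (Top2a) lower with metformin in RD liver and 1 higher in the contrast of the diets. Without the dim arrays, an alternative added after seeing the data, 1 member (Ccnd1) was higher in SAT than in liver.

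With each array left out in turn, the lower members numbered 36 in brain against liver, 28 to 29 in SAT against liver, 23 to 30 in brain against SAT and 11 (without RD control 1B) to 16 in HFD against RD liver. The members higher in HFD than in RD liver numbered 0 (without RD control 5C) to 6 (without HFD control 1T-1). With metformin 0 to 1 were higher in HFD liver (Uhrf1, without control 1T-2 or metformin 10K-2) and, without RD metformin 6F, Cdc6 was the 1 member lower in RD liver and higher in the contrast of the diets, with 0 otherwise. The second Top2a probe was followed by alternatives chosen after seeing the data, and its contrast of the diets was 1.69 with median centring (adjusted p = 1.00), 1.20 without background correction (0.0151) and 0.61 in the values normalized by the authors (0.0316).

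With the letters shared by animal codes as a random block (extended, after seeing the data, to the diets), no count of members that passed changed, and the correlation within a code was 0.00915 in livers, −0.06 in SAT and 0.52 in brain. With the animal as a block for pairing, 37 members were lower in brain and 29 lower in SAT than in liver, so the block changed no call count, and 0 passed where metformin differences in SAT and liver were contrasted (added after seeing the data). Precision is limited by the number of arrays, 3 to 6 a group, and by signal near background for Pcna, Ccne2, Gins1, Chek1 and Ube2c in HFD livers or brain. In SAT the tested members Ccne1, Cdc6, Mcm3, Gins1, Pcna, Kif11, Tpx2 and Foxm1 were detected on only some arrays.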
